A study of Mus musculus with 6 samples.

Results

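Axon guidance ligands and receptors were examined in RNA from sorted stromal cells of the inflamed mouse large intestine. The members were chosen by gene name as the semaphorins of classes 3 to 7, plexins, neuropilins, Slits, Robos, netrins, Unc5 receptors, ephrins and Eph receptors. They numbered 68 of the 24346 genes in the tables, with 35 ligands and 33 receptors. The 6 libraries compared came each from a different mouse aged 12 weeks that had been given 1% dextran sulfate sodium (DSS), an agent that injures the colonic epithelium. The Pdgfra-cre group held 3 mice (numbers 13, 23 and 25) of the genotype Pdgfra cre; Il10ra flox/flox, in which a cre recombinase is named for Pdgfra, a gene of fibroblasts and related mesenchymal cells. The sources used here do not give the cre line or its promoter fragment. The floxed group held 3 mice (numbers 8, 9 and 43) of the genotype Il10ra flox/flox, which carry the same floxed alleles without the cre, and both groups received DSS. Il10ra encodes the receptor chain that binds interleukin-10, a cytokine that restrains inflammation. Live cells had been sorted from the whole colon as positive for Podoplanin and negative for CD45, CD31 and EpCAM, so leukocytes, endothelial cells and epithelial cells were gated out.

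These ligands and receptors were first described in growing axons, which they attract or repel, and they also act between cells of blood vessels, gut and connective tissue. Semaphorins signal through plexins, and the secreted class 3 semaphorins mostly need a neuropilin as co-receptor. Slits are large secreted proteins that bind Robo receptors, netrins bind DCC, neogenin and the Unc5 receptors, and ephrins are membrane-bound ligands that signal with Eph receptor tyrosine kinases in both directions between touching cells. In the gut, ephrin-B ligands and EphB receptors position epithelial cells along the crypt, and semaphorins and netrins act on nerves and vessels.

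In all 4 tested Slit and Robo genes, every Pdgfra-cre value lay above or below every floxed value. This was so in 16.4% of all tested genes, and no gene passed the test between genotypes described below. The start regions of the 4 genes are shown first. Each is the 300-base RefSeq window (GRCm38.p6) that runs from 250 bases before an annotated transcript start to 50 bases after it, written 5′ to 3′ on the gene's strand. Capitals mark GC boxes (GGGCGG on either strand) and, in Slit2, a TATA box (TATAAA). The windows lie at chr11:35121206-35121505 (plus strand) for Slit3, chr5:47982905-47983204 (plus) for Slit2, chr16:72662899-72663198 (plus) for Robo1 and chr16:74411776-74412075 (minus) for Robo2. The Robo1 window, its only entry in the table used, lies inside the gene as GENCODE M21 places it, at an internal start. Robo2 has 3 such windows, and the one printed is at the 5′ end of the gene in GENCODE M21.
Slit3: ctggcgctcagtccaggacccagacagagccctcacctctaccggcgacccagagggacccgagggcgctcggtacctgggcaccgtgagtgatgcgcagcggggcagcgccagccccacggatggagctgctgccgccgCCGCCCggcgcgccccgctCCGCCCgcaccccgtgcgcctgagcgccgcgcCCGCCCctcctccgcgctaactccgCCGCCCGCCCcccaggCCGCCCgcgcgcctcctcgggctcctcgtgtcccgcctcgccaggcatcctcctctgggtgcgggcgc
Slit2: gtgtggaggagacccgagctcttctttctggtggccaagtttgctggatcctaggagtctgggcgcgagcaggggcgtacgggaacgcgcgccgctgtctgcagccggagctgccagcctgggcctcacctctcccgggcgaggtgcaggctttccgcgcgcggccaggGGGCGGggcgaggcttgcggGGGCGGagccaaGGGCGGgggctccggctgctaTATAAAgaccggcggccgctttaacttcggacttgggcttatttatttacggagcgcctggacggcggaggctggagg
Robo1: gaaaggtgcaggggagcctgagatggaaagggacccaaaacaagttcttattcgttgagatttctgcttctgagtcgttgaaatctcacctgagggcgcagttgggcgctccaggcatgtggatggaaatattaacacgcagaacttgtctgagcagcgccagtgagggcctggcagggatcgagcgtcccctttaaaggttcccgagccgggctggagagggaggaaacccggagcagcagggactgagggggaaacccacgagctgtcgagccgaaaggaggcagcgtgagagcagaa
Robo2: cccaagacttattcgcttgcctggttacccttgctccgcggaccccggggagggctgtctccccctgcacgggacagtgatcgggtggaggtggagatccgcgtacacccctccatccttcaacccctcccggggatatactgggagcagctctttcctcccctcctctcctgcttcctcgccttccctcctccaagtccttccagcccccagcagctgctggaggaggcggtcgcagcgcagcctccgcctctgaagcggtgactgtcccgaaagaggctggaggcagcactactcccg

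The Slit windows held GC boxes, 6 in Slit3 and 3 in Slit2, and the printed Robo windows had none. GC boxes were present in 35.7% of the 32851 windows of all genes. They were common among the members, in 53 of their 75 windows. Counting any window of a gene, 26 of the 33 tested members with a window had one. Member windows were also richer in G and C, with a median of 64.3% against 52.7% over all windows. The motif shares were not adjusted for this. The TATA box of Slit2 began 28 bases before the start, and 13.6% of all windows held this motif. The 17 tested members with a window and described below by library had 23 windows. None of these held, on either strand, a match to the interferon-stimulated response element core (GAAA, any 2 bases, GAAA) or to the gamma-activated site (TTCNNNGAA). Of all windows, 3.44% held the first and 8.3% the second. Overlapping matches of a motif were counted, and a missing match says only that these letters were not in this window.

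The values were FPKM, fragment numbers scaled for transcript length and library depth, a scale on which levels can be compared between genes. The low values piled up at steps of whole reads, which put 1 read per kilobase at 0.114 to 0.134 FPKM and depth at roughly 7.48 to 8.76 times 1000000 mapped fragments per library. The targeted gene did not check the genotypes: Il10ra was listed at 0 in all Pdgfra-cre libraries and in floxed libraries 8 and 9, and was 0.418 FPKM in floxed library 43. Most fibroblast markers were abundant, with Dcn, a matrix proteoglycan gene, at 9697 to 11261 FPKM in Pdgfra-cre and 8626 to 9149 in floxed libraries. Thy1 was low, at 4.86 to 10.4 FPKM in Pdgfra-cre and 3.69 to 7.93 in floxed libraries. Of the 8 listed, 7 had a log2 fold change above 0 and 1, Pdgfra itself, below. Pdgfra had 155, 120 and 174 FPKM in Pdgfra-cre libraries 13, 23 and 25, against 178, 186 and 200 FPKM in floxed libraries 8, 9 and 43, without overlap. Of 9 endothelial markers, 5 stayed under 1 FPKM in every library and Cdh5 was listed at 0 in all. Pdgfra-cre library 23 stood apart, with a mean correlation of 0.950 with the others against 0.960 to 0.970 for the rest. Its summed neutrophil markers were 180 FPKM, against 10.8 and 18.05 in the other Pdgfra-cre libraries and 1.36 to 11.4 in floxed libraries. Where nothing else is stated, p values come from limma on log2(FPKM + 1), adjusted with the Benjamini-Hochberg method over all tested genes, and fold changes are Pdgfra-cre minus floxed on that scale, which understates differences of genes with low FPKM.

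Sorted colonic stroma expressed a small part of the guidance repertoire strongly. Of the 68 members, 38 reached 1 FPKM in at least 3 libraries and were tested. In none of them was that filter met through the libraries of 1 genotype alone. Only 8 had a mean of at least 10 FPKM: Slit3, Sema3c, Nrp1, Ntn4, Plxnb2, Sema3b, Sema3f and Nrp2. Sema3f was among them through floxed library 43 at 28.2 FPKM, since its other 5 libraries lay between 4.57 and 9.65 FPKM. Slit3, Sema3c and Nrp1 together made up 54.2% to 60.4% of the summed FPKM of all members in Pdgfra-cre libraries and 47.9% to 49.6% in floxed libraries. Slit3 exceeded 92.3% of all tested genes by mean FPKM, Sema3c 88.2% and Nrp1 86.4%.

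**Figure D1:**
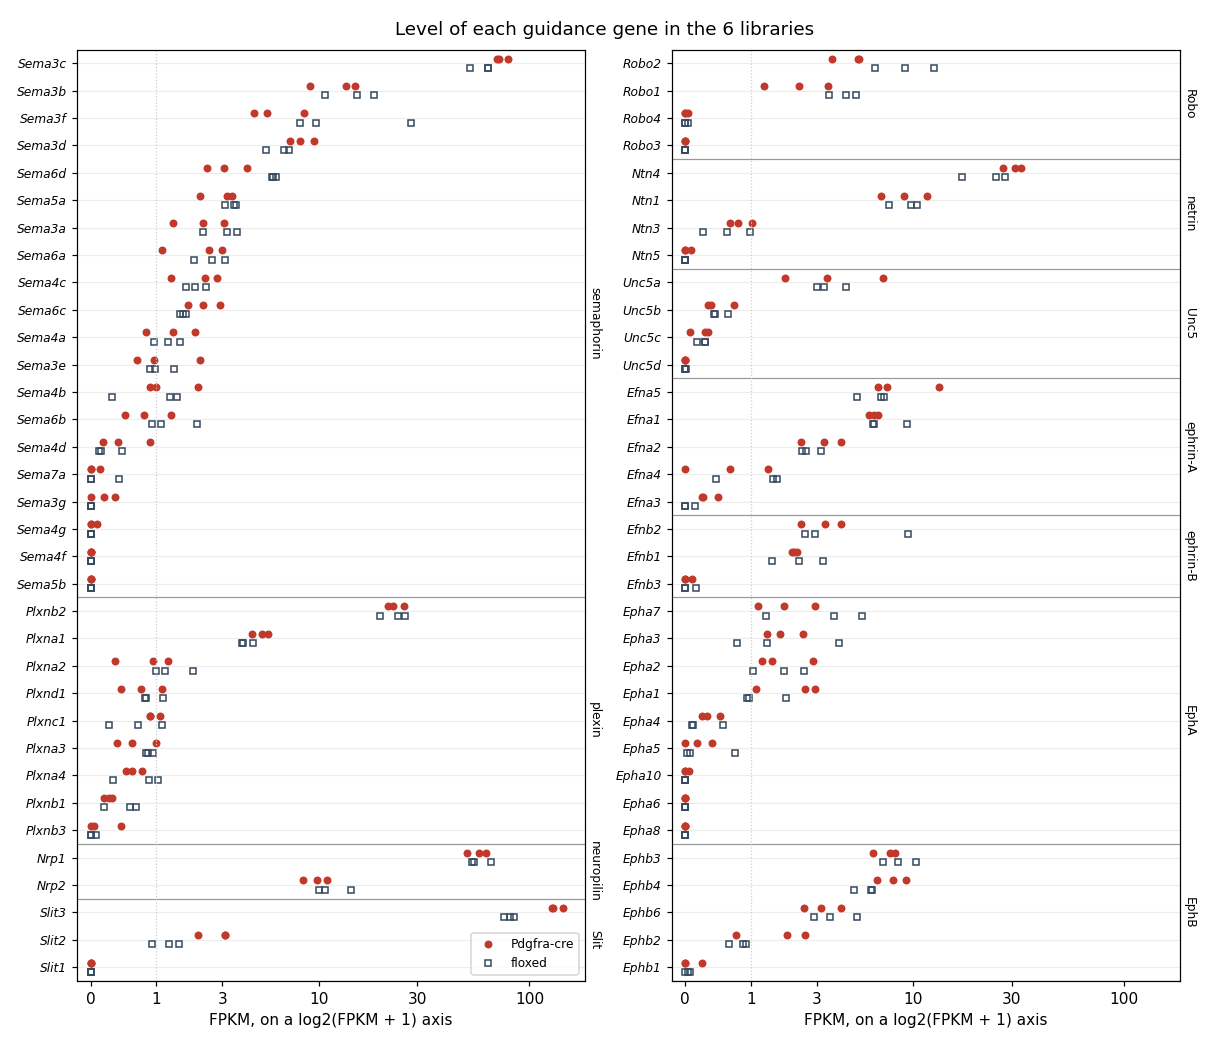
FPKM of all 68 guidance genes in each library, on a log2(FPKM + 1) axis, with Pdgfra-cre as filled circles above floxed as open squares, grouped by family and ordered by mean. Slit3, Sema3c and Nrp1 lie above 50 FPKM in every library, while most plexins, Unc5 and EphA genes lie under 3 FPKM.

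The other 30 members did not reach 1 FPKM in 3 libraries and were not tested. Of these, 6 were listed at 0 in all libraries: Slit1, Robo3, Sema4f, Sema5b, Epha6 and Epha8. A further 18 stayed under 1 FPKM throughout, among them Robo4, the Robo of endothelial cells, which lay between 0 and 0.0324 FPKM. The 6 that reached 1 FPKM in 1 or 2 libraries were Ephb2, Sema3e, Ntn3, Plxna4, Plxnc1 and Plxnd1. Ephb2, a receptor for ephrin-B ligands, had 0.703, 2.54 and 1.91 FPKM in Pdgfra-cre libraries 13, 23 and 25, against 0.585, 0.840 and 0.887 FPKM in floxed libraries 8, 9 and 43. The 2 highest values of Ephb2 were in Pdgfra-cre libraries, but the lowest Pdgfra-cre value lay within the floxed range.

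No guidance gene passed the test between genotypes. Across all 11429 tested genes limma called 0, which is 0% of them, and 1253 genes or 11% had an unadjusted p under 0.05. Without Pdgfra-cre library 25 the genes called were 31, with no guidance member among them. Of the 38 tested members, 7 or 18.4% had an unadjusted p under 0.05. Slit3, Slit2 and Sema3c were the 3 on the higher side in Pdgfra-cre libraries, where 5.47% of all tested genes lay. Robo1, Robo2, Sema6d and Sema3f were the 4 on the lower side, against 5.49% of all tested genes. The count of 7 was 4 without Pdgfra-cre library 13, where the share over all tested genes was not computed. The genotypes did not overlap in 9 members, or 23.7%, against 16.4% of all tested genes. Of these, 6 were higher in Pdgfra-cre libraries and 3 lower, against 8.07% and 8.29% of all tested genes. Without floxed library 9 the 9 became 15, in part because fewer values leave less room for overlap. The share over all tested genes was not computed there either, so the 15 has no background. In direction the members were split: 18 had a log2 fold change above 0 and 20 below, with a median of -0.028, and the median over all tested genes was 0.0012. The p values measure the spread between 3 mice a group.

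**Figure D2:**
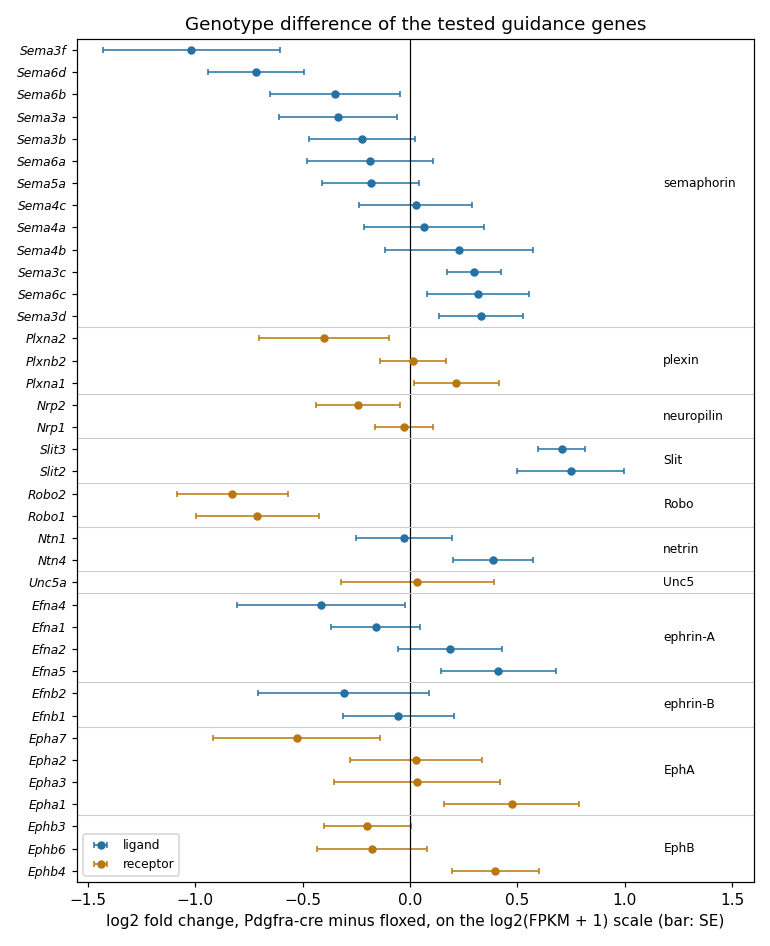
Log2 fold change of the 38 tested guidance genes, Pdgfra-cre minus floxed on the log2(FPKM + 1) scale, with bars for the SE, ordered by family and coloured as ligand or receptor. Both tested Slits lie to the right of 0 and both tested Robos to the left, while the semaphorins, the largest family, lie on both sides of 0.

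Slit ligands were higher and their Robo receptors lower in the Pdgfra-cre libraries, with no overlap between genotypes for any of the 4 tested genes. Slit3 (chr11:35121224-35708507, plus strand, mm10) encodes a secreted ligand of Robo receptors. It had 128, 142 and 127 FPKM in Pdgfra-cre libraries 13, 23 and 25, against 84.7, 76.5 and 80.9 FPKM in floxed libraries 8, 9 and 43. The lowest Pdgfra-cre value lay well above the highest floxed one, and the ratio of the group means was 1.64. The log2 fold change was 0.71 ± 0.11 (SE, limma adjusted p = 0.107), which ranked 7 among all tested genes by p. Roughly 2990 to 6444 reads lay behind each value by the depth estimate, for the longest annotated transcript.

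Slit2 (chr5:47983138-48307733, plus strand) encodes the best-studied Slit, a repellent for axons that also acts on vessels. Its FPKM was far lower than that of Slit3, at 2.11, 3.12 and 3.10 FPKM in Pdgfra-cre libraries 13, 23 and 25, against 1.54, 1.28 and 0.905 FPKM in floxed libraries 8, 9 and 43. Again every Pdgfra-cre value was above every floxed value, and the ratio of means was 2.23. On the log2 scale it was 0.75 ± 0.25 higher (SE, limma adjusted p = 0.294), and 1.11 higher with a pseudocount of 0.1 in place of 1. By the rough depth estimate 177 to 270 reads lay behind the Pdgfra-cre values and 74.5 to 129 behind the floxed values. Both ranges use the longest of 23 annotated transcripts (9960 bases) and are too high if shorter ones were expressed.

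Robo2 (chr16:73891839-74411825, minus strand) was the most abundant Robo receptor. Pdgfra-cre libraries 13, 23 and 25 had 5.24, 3.67 and 5.16 FPKM, against 9.02, 6.35 and 12.6 FPKM in floxed libraries 8, 9 and 43. The 3 Pdgfra-cre values were close to each other and below a scattered floxed group. The difference was -0.83 ± 0.26 on the log2 scale (SE, limma adjusted p = 0.270). Without floxed library 43, which had the highest Robo2 value, it was -0.61.

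Robo1 (chr16:72308306-73046095, plus strand), which lies on the same chromosome with its 3′ end toward Robo2, showed the same order of genotypes. Its values were 2.32, 1.28 and 3.48 FPKM in Pdgfra-cre libraries 13, 23 and 25, against 4.41, 3.55 and 5.04 FPKM in floxed libraries 8, 9 and 43. Here the groups nearly touched, at 3.48 in Pdgfra-cre library 25 and 3.55 in floxed library 9. The log2 fold change was -0.71 ± 0.29 (SE, limma adjusted p = 0.391), and without Pdgfra-cre library 23, which had the lowest value, it was -0.46. No exon of Slit2, Slit3, Robo1 or Robo2 overlapped an exon of another annotated gene, so unstranded reads of a neighbour do not enter these 4 values through annotated exons.

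**Figure D3:**
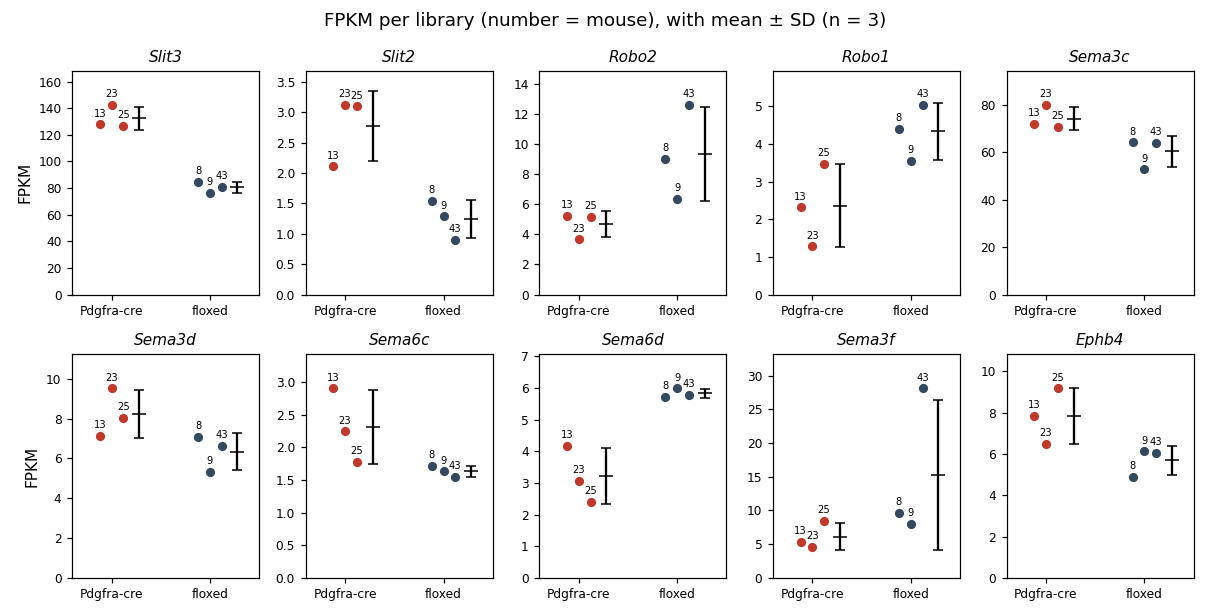
FPKM per library for the 10 guidance genes with an unadjusted p under 0.05 or no overlap between genotypes, Pdgfra-cre at left and floxed at right in each panel, with the mean ± SD (n = 3) beside the points and mouse numbers above them. Slit3 and Slit2 separate upward and Robo2, Robo1 and Sema6d downward in Pdgfra-cre, while Sema3f overlaps and its floxed spread is set by library 43.

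Taking ligands and receptors together, the summed level of Slit2 and Slit3 was 130, 146 and 130 FPKM in Pdgfra-cre libraries 13, 23 and 25, against 86.3, 77.8 and 81.8 FPKM in floxed libraries 8, 9 and 43. Robo1 and Robo2 summed to 7.56, 4.95 and 8.64 FPKM in the same Pdgfra-cre libraries, against 13.4, 9.90 and 17.6 FPKM in the floxed libraries. The ratio of Slit to Robo transcripts was therefore 17.2, 29.4 and 15.1 in Pdgfra-cre libraries, against 6.42, 7.86 and 4.64 in floxed libraries. This ratio was formed after the values were seen and was not tested. Library 23 was the extreme in both sums, and the other 2 Pdgfra-cre libraries still lay apart from all floxed libraries.

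**Figure D4:**
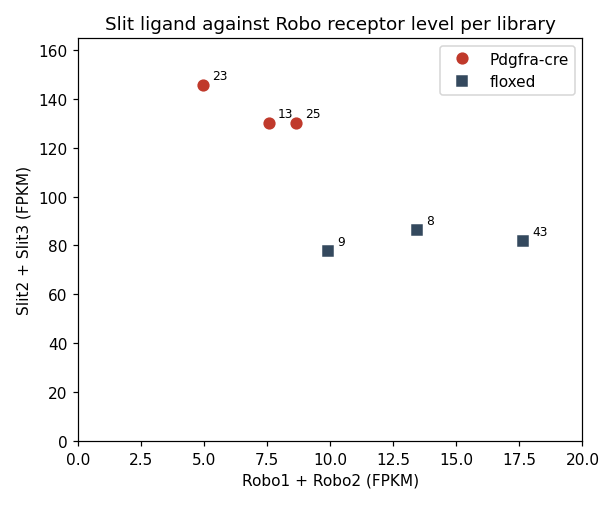
Summed FPKM of Slit2 and Slit3 against summed FPKM of Robo1 and Robo2 in each library, with mouse numbers. The Pdgfra-cre libraries (circles) sit at 130 to 146 FPKM of Slit and under 9 FPKM of Robo, and the floxed libraries (squares) at 77.8 to 86.3 FPKM of Slit and above 9 FPKM of Robo.

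Markers of some stromal cell types differed between the same libraries. In bulk RNA, fewer cells of a type and less RNA per cell cannot be told apart. Markers of subepithelial fibroblasts with high PDGFRA summed to 462 to 552 FPKM in Pdgfra-cre and 761 to 1132 in floxed libraries. All 12 had a log2 fold change below 0, and 8 did not overlap, where the share over all tested genes was 16.4%. Smooth muscle and myofibroblast markers summed to 182 to 460 FPKM in Pdgfra-cre and 772 to 803 in floxed libraries, and all 9 were lower without overlap. Markers of CD34 and CD81 fibroblasts summed to 5746 to 9783 FPKM in Pdgfra-cre and 3771 to 4822 in floxed libraries. Of those, 8 of 9 had a log2 fold change above 0, and 6 of the 9 did not overlap. Mesothelial markers summed to 16.3 to 83.6 FPKM in Pdgfra-cre and 3.13 to 13.6 in floxed libraries, with 5 of 8 tested and all 5 above 0. Pericyte markers summed to 30.9 to 39.3 FPKM in Pdgfra-cre and 43.4 to 61.2 in floxed libraries, with 5 of 7 tested, 4 of them below 0 and 2 without overlap. No marker of these 5 lists was listed at 0 in all libraries. Other sums overlapped between genotypes, among them the general fibroblast, interstitial cell of Cajal, enteric neuron and enteric glia lists. The enteric glia sum was 5.57 to 9.19 FPKM in Pdgfra-cre and 5.83 to 15.7 in floxed libraries. The part of these lists in the Slit and Robo differences was not tested. Library 23 was lowest for the smooth muscle list and highest for the mesothelial and neutrophil lists. Without it the log2 fold change was 0.65 for Slit3, 0.68 for Slit2, -0.69 for Robo2 and -0.46 for Robo1. Pdgfra-cre libraries 13 and 25 also lay below the floxed libraries in the smooth muscle sum, at 419 and 460 FPKM against 772 to 803. Leaving out library 23 thus does not take the marker differences away.

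**Figure D5:**
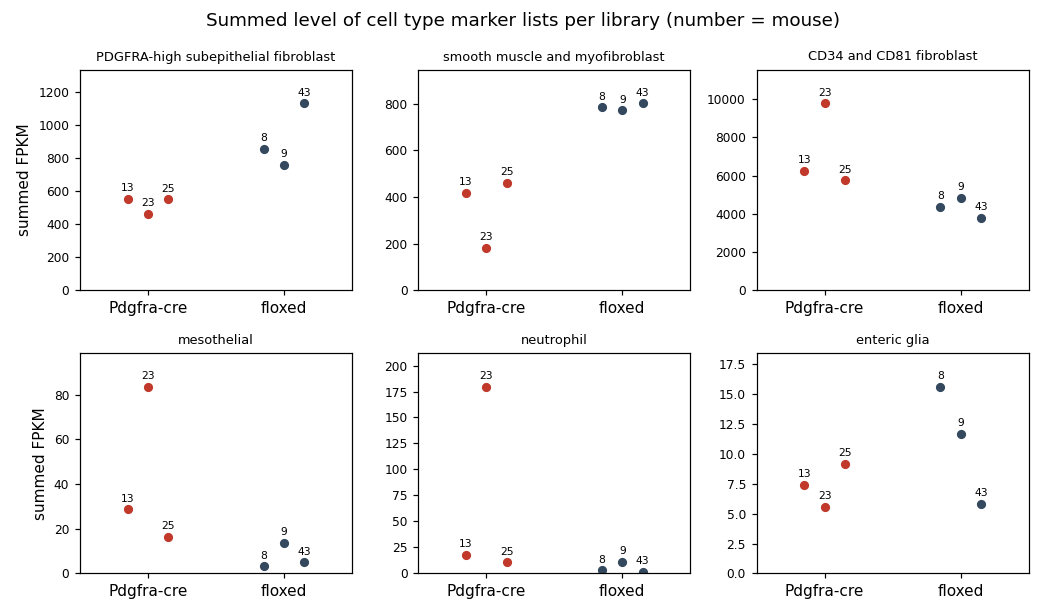
Summed FPKM of marker lists for 6 cell types in each library, Pdgfra-cre at left and floxed at right, with mouse numbers. The PDGFRA-high and smooth muscle lists are lower and the CD34 and CD81 list higher in all 3 Pdgfra-cre libraries, and library 23 is highest for mesothelial and neutrophil markers. The enteric glia list overlaps between genotypes.

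Slit2 and Slit3 each contain a copy of miR-218 in an intron, on the same strand. Mir218-1 lies in Slit2 (chr5:48223942-48224051) and Mir218-2 in Slit3 (chr11:35616816-35616925), and both give the same 5p mature form, for which human ROBO1 is a described target. The sequence below is that of RefSeq (GRCm38.p6), with the seed (bases 2 to 8) in capitals, followed by 3′ UTR sites of GENCODE M21 transcripts that match the seed (AAGCACA, in capitals, mm10).
miR-218-5p: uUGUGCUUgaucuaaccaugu
Robo1 site, chr16:73045340-73045362: ggttttaaAAGCACAatcactaa
Robo2 first site, chr16:73895351-73895373: ttggtgatAAGCACAaatctcta
Robo2 second site, chr16:73893025-73893047: gcagacccAAGCACAgcttcttt

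Such 7-base matches are common: the longest annotated 3′ UTR held one in 13 of 38 tested members and in 15% of 10676 tested genes with a UTR. Among UTRs within 20% of the length of Robo1's (1733 bases) the share was 17%, and among those within 20% of Robo2's (3987 bases) it was 36.7%. Slit2 itself held 2 matches. The rows of Mir218-1 and Mir218-2 were listed at 0 in all 6 libraries. The library kit copies full-length cDNA, so the tables do not measure the mature form, and its level in these cells is unknown here.

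Semaphorins were the largest family, with 20 members, 13 of them tested. They split between genotypes, with 6 log2 fold changes above 0 and 7 below and a median of -0.18. Sema3c (chr5:17574281-17730268, plus strand), a secreted class 3 ligand that guides cardiac neural crest cells, was by far the most abundant. It had 72.0, 79.98 and 70.7 FPKM in Pdgfra-cre libraries 13, 23 and 25, against 64.2, 52.8 and 64.1 FPKM in floxed libraries 8, 9 and 43. The difference was small and without overlap, with a log2 fold change of 0.30 ± 0.13 (SE, limma adjusted p = 0.418).

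Sema3d, another secreted ligand, lies on the same chromosome (chr5:12383385-12588948). It had 7.14, 9.53 and 8.05 FPKM in Pdgfra-cre libraries 13, 23 and 25, against 7.09, 5.32 and 6.62 FPKM in floxed libraries 8, 9 and 43. The groups were separated by only the gap between 7.14 and 7.09 FPKM, and the adjusted p from limma was 0.608 for a log2 fold change of 0.33 ± 0.20 (SE). Sema3a and Sema3e lie between Sema3d and Sema3c on chromosome 5. Sema3a, the classic axon repellent that signals through Nrp1, spanned 1.38 to 3.08 FPKM in Pdgfra-cre and 2.26 to 3.64 FPKM in floxed libraries, which overlapped. The 4 genes of this region differed widely in level, with Sema3e at 0.633 to 2.14 FPKM.

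Sema6d (chr2:124089969-124667770, plus strand), a transmembrane ligand of A-type plexins, was lower in Pdgfra-cre libraries. It had 4.18, 3.07 and 2.41 FPKM in Pdgfra-cre libraries 13, 23 and 25, against 5.73, 5.99 and 5.78 FPKM in floxed libraries 8, 9 and 43. The floxed values were nearly equal and every Pdgfra-cre value lay below them. Its log2 fold change was -0.72 ± 0.22 (SE, limma adjusted p = 0.270). Sema6c, of the same class, had 2.90, 2.25 and 1.78 FPKM in Pdgfra-cre libraries 13, 23 and 25, against 1.72, 1.63 and 1.55 FPKM in floxed libraries 8, 9 and 43. The Sema6c groups did not overlap, but Pdgfra-cre library 25 came close to the floxed values, and the log2 fold change was 0.32 ± 0.24 (SE, limma adjusted p = 0.706). Without Pdgfra-cre library 13 it was 0.19.

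Sema3f, a secreted ligand of Nrp2 that repels axons and vessels, had the largest fold change of the tested members and was decided by 1 mouse. Pdgfra-cre libraries 13, 23 and 25 had 5.38, 4.57 and 8.44 FPKM, against 9.65, 8.01 and 28.2 FPKM in floxed libraries 8, 9 and 43. The groups overlapped, since Pdgfra-cre library 25 exceeded floxed library 9. The log2 fold change was -1.02 ± 0.41 (SE, limma adjusted p = 0.393), and it was -0.49 without floxed library 43. That library was also the highest for Robo2, for ephrin-B2 and for the summed PDGFRA-high fibroblast markers (1132 FPKM), whose part in these values was not tested.

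Of the semaphorin receptors, the neuropilins and plexins showed no separation between genotypes. Nrp1 (chr8:128358604-128503363, plus strand), co-receptor of class 3 semaphorins and of vascular endothelial growth factor, had 63.0, 58.5 and 51.1 FPKM in Pdgfra-cre libraries 13, 23 and 25, against 54.4, 55.3 and 66.7 FPKM in floxed libraries 8, 9 and 43. Both genotypes covered nearly the same range, with a log2 fold change of -0.029 ± 0.14 (SE, limma adjusted p = 0.968). Nrp2 averaged 9.72 ± 1.37 FPKM in Pdgfra-cre and 11.7 ± 2.32 FPKM in floxed libraries (SD, n = 3 each).

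Plxnb2 (chr15:89155549-89180788, minus strand), a receptor of class 4 semaphorins, was the main plexin. It had 23.1, 21.8 and 26.0 FPKM in Pdgfra-cre libraries 13, 23 and 25, against 24.3, 26.3 and 19.9 FPKM in floxed libraries 8, 9 and 43. The ranges of the genotypes overlapped almost fully, and the log2 fold change was 0.015 ± 0.15 (SE, limma adjusted p = 0.987). Only 3 of 9 plexins were tested. Plxna1, the next in level, lay between 3.94 and 5.43 FPKM, and 10.7% of its exon bases are shared with the annotated gene Gm26811. Plxnd1, a receptor of vessels and of Sema3e, was at most 1.15 FPKM.

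Netrin ligands were present while the Unc5 family was sparse. Ntn4 (chr10:93640681-93747207, plus strand), which binds laminins of the basement membrane, had 33.2, 27.2 and 31.1 FPKM in Pdgfra-cre libraries 13, 23 and 25, against 25.3, 17.4 and 27.8 FPKM in floxed libraries 8, 9 and 43. The genotypes overlapped between 27.2 and 27.8 FPKM. Its log2 fold change was 0.38 ± 0.19 (SE, limma adjusted p = 0.509), and it was 0.19 without floxed library 9. Ntn1, the founding axon attractant, averaged 9.15 ± 2.40 FPKM in Pdgfra-cre and 9.24 ± 1.54 FPKM in floxed libraries (SD, n = 3 each).

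Unc5a, a repulsive netrin receptor, was the only one of its family that could be tested. It had 1.84, 6.97 and 3.42 FPKM in Pdgfra-cre libraries 13, 23 and 25, against 4.41, 3.01 and 3.31 FPKM in floxed libraries 8, 9 and 43. Libraries 13 and 23, both Pdgfra-cre, were the lowest and the highest of all 6. The log2 fold change of 0.033 ± 0.36 (SE, limma adjusted p = 0.987) was -0.36 without library 23. Of the other netrin receptors, Dcc reached 0.0199 FPKM in Pdgfra-cre library 25 and was listed at 0 elsewhere. Neo1, which encodes neogenin, had 10.3, 7.43 and 8.05 FPKM in Pdgfra-cre libraries 13, 23 and 25, against 13.1, 11.1 and 13.1 FPKM in floxed libraries 8, 9 and 43. Neo1 was lower in all Pdgfra-cre libraries, with a log2 fold change of -0.50 ± 0.18 (SE, limma adjusted p = 0.343).

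Ephrins and Eph receptors were expressed at low to moderate levels. Ephrin-A5, a membrane-anchored ligand encoded by Efna5, had 7.31, 13.4 and 6.57 FPKM in Pdgfra-cre libraries 13, 23 and 25, against 6.82, 5.06 and 7.10 FPKM in floxed libraries 8, 9 and 43. Library 23 stood above the other 5, which lay together. Its log2 fold change was 0.41 ± 0.27 (SE, limma adjusted p = 0.650), and it was 0.13 without library 23. Efna1, Efna3 and Efna4 lie side by side on chromosome 3 (89271733 to 89338028), where Efna1 had 5.90 to 9.24 FPKM, Efna4 0 to 1.61 FPKM and Efna3 at most 0.405 FPKM.

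Ephrin-B2, the transmembrane ligand that marks arterial vessels and is encoded by Efnb2, had 4.12, 2.39 and 3.33 FPKM in Pdgfra-cre libraries 13, 23 and 25, against 2.52, 2.90 and 9.40 FPKM in floxed libraries 8, 9 and 43. Floxed library 43 was far above the other 5. With it the log2 fold change was -0.31 ± 0.40 (SE, limma adjusted p = 0.848), and without it 0.19. Ephrin-B1 averaged 2.15 ± 0.081 FPKM in Pdgfra-cre and 2.35 ± 0.876 FPKM in floxed libraries (SD, n = 3 each).

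Ephb4 (chr5:137350109-137378669, plus strand), the receptor of ephrin-B2 and a marker of veins, had 7.85, 6.48 and 9.19 FPKM in Pdgfra-cre libraries 13, 23 and 25, against 4.88, 6.13 and 6.06 FPKM in floxed libraries 8, 9 and 43. Every Pdgfra-cre value was above every floxed value, although 6.48 and 6.13 FPKM were close, and the log2 fold change was 0.40 ± 0.20 (SE, limma adjusted p = 0.532). Among the 9 endothelial markers, 3 were tested. The sum of all 9 was 42.4 to 51.6 FPKM in Pdgfra-cre and 40.8 to 51.9 FPKM in floxed libraries. Most of that sum was Tek, at 32.3 to 41.5 FPKM in Pdgfra-cre and 27.1 to 34.8 FPKM in floxed libraries. Esam, an endothelial adhesion gene of the same list, lay the other way without overlap, at 5.55, 4.51 and 6.29 FPKM in Pdgfra-cre libraries 13, 23 and 25, against 9.38, 9.09 and 12.9 FPKM in floxed libraries 8, 9 and 43. Of the 3 tested endothelial markers, 1 was above 0 and 2 below, and their part in the Ephb4 values was not tested.

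Ephb3 had the highest mean of the Eph receptors over all 6 libraries, although Ephb4 was higher in the Pdgfra-cre group (7.84 FPKM, against 7.30 FPKM for Ephb3). Its values were 6.23, 7.56 and 8.11 FPKM in Pdgfra-cre libraries 13, 23 and 25, against 10.3, 8.40 and 7.00 FPKM in floxed libraries 8, 9 and 43. The genotypes overlapped, and the log2 fold change was -0.20 ± 0.20 (SE, limma adjusted p = 0.801). It was -0.070 without floxed library 8, -0.10 without Pdgfra-cre library 13 and -0.32 without floxed library 43. Epha7 had the highest mean of the EphA genes over all 6 libraries, although Epha1 was higher in the Pdgfra-cre group (2.19 FPKM, against 1.96 FPKM for Epha7). Its values were 1.82, 1.15 and 2.91 FPKM in Pdgfra-cre libraries 13, 23 and 25, against 5.39, 1.33 and 3.80 FPKM in floxed libraries 8, 9 and 43. Both groups of Epha7 were scattered, with a log2 fold change of -0.53 ± 0.39 (SE, limma adjusted p = 0.696). It was -0.22 without floxed library 8, -0.32 without Pdgfra-cre library 23 and -0.95 without floxed library 9. Counting these 2 genes, 28 tested members overlapped and had an unadjusted p of at least 0.05, with log2 fold changes between -0.53 and 0.47.

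Genes that act with or downstream of guidance receptors were read from the same fit. Of 20 co-receptors and partners, 9 were tested and 0 passed. An unadjusted p under 0.05 was found in 2, or 22.2%, against 11% of all tested genes, and 1 did not overlap, or 11.1%, against 16.4%. Besides Neo1 the other was Gpc1, a cell-surface heparan sulfate proteoglycan that can bind Slit, with 13.4, 10.2 and 26.8 FPKM in Pdgfra-cre libraries 13, 23 and 25, against 23.6, 27.2 and 32.5 FPKM in floxed libraries 8, 9 and 43. Gpc1 overlapped, since Pdgfra-cre library 25 lay within the floxed range (limma adjusted p = 0.365). The most abundant partner was Dag1, which encodes dystroglycan, at 60.0 ± 4.39 FPKM in Pdgfra-cre and 53.7 ± 3.63 FPKM in floxed libraries (SD, n = 3 each). The list's median log2 fold change was 0.089.

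Of 50 effectors, 41 were tested and 0 passed, with a median log2 fold change of 0.081. An unadjusted p under 0.05 was found in 7, or 17.1%, against 11% of all tested genes. The genotypes did not overlap in 11, or 26.8%, against 16.4% of all tested genes. The 4 of the 7 with a higher mean in Pdgfra-cre libraries were the actin-binding protein gene Ablim1, the Src-family kinase gene Fyn, Rock2 and Rac1. Among them Fyn overlapped, at 57.6 to 80.3 FPKM in Pdgfra-cre and 52.0 to 57.9 FPKM in floxed libraries. Ablim1 had 38.9, 34.0 and 32.4 FPKM in Pdgfra-cre libraries 13, 23 and 25, against 19.2, 18.3 and 23.7 FPKM in floxed libraries 8, 9 and 43, without overlap (log2 fold change 0.76 ± 0.15, SE, limma adjusted p = 0.156). The 3 with a lower mean were the kinase genes Pak1 and Fes and the adaptor gene Nck2. Nck2 overlapped, at 2.41 to 6.08 FPKM in Pdgfra-cre and 5.74 to 12.98 FPKM in floxed libraries. Pak1, an effector of Rac1, had 5.38, 6.01 and 6.03 FPKM in Pdgfra-cre libraries 13, 23 and 25, against 9.67, 9.93 and 9.95 FPKM in floxed libraries 8, 9 and 43. The 2 groups of Pak1 were each tight and clearly apart (log2 fold change -0.67 ± 0.17, SE, limma adjusted p = 0.199). The most abundant effector, the actin-severing cofilin gene Cfl1, averaged 333 ± 11.8 FPKM in Pdgfra-cre and 327 ± 20.3 FPKM in floxed libraries (SD, n = 3 each).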

How the data were processed

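RNA of sorted colonic stromal cells from 6 mice was analysed as gene-level FPKM, which the authors deposited as 1 table per library. Per the labels' protocols, total RNA was made into full-length cDNA and tagmented libraries. Kits of this kind do not mark strand. TopHat2 2.1.1, Bowtie2 2.2.8, SAMtools 0.1.18 and Cuffdiff 2.2.1 were used with mm10, per the submitters' processing notes. Their options, annotation release and number of reads are not given in the sources used here. Depth was estimated from low values of genes with 1 annotated transcript, and intervals of this estimate were not computed. At that depth 82.6% to 90.5% of the low values lay within 0.25 reads of a whole number, where evenly spread values would give 50%. The step was the median of values in a preset range, which limited the depths it could give. Those values were also among the ones checked, so part of the agreement is built in.

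R 4.3.3 and limma 3.58.1 fitted log2(FPKM + 1) with a variance trend to genes that reached 1 FPKM in 3 or more libraries, with a threshold of 0.05 for the adjusted p. Members described by library were the highest of each family and those with an unadjusted p under 0.05 or without overlap between genotypes. Ephb2, which did not meet the filter, was given by library as well, outside this rule. The members, lists and this rule were chosen with earlier results of these data known. Locations are from GENCODE M21, in which all 68 members matched, and promoter windows from RefSeq, in which 59 did. Alternatives were a pseudocount of 0.1, no filter, a filter on the mean, median-of-ratios scaling, quantile normalization, array weights and leaving out each library.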

Additional observations from a re-analysis of the deposited data

How the results depend on the processing

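The 10 members with a low p or no overlap kept their direction under all 12 alternatives, and 0 guidance members, co-receptors or effectors passed under any. In the 9 without overlap the direction was largely fixed in advance. A lower pseudocount, either filter setting, array weights or 1 library fewer cannot reverse genotypes that do not overlap. For Slit3 the log2 fold change ranged from 0.65 to 0.74 and the adjusted p from 0.0702 to 0.373. The range was 0.64 to 1.11 for Slit2, -1.05 to -0.61 for Robo2 and -0.95 to -0.46 for Robo1. When 1 library at a time was left out, 0 to 31 genes of all tested passed, 4 to 7 members had an unadjusted p under 0.05, and 11 to 15 members did not overlap. The 31 came without Pdgfra-cre library 25. Shares over all tested genes were not computed in these fits, so the member counts have no background to be read against. Only the tested members described by library were checked gene by gene under the alternatives. Among these, direction was not stable for 4 members near 0 or with a scattered group. Leaving out 1 library gave -0.36 to 0.39 for Unc5a, -0.59 to 0.19 for Efnb2, -0.096 to 0.064 for Nrp1 and -0.096 to 0.097 for Plxnb2, and array weights gave -0.22 for Unc5a. The cause was not tested. No paired analysis was possible because the replicate numbers are mouse numbers and the labels give no pairing or batch. Groups of 3 mice limit the test. The lowest members rest on few reads, a number that also depends on transcript length.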
